A study of Mus musculus with 40 samples.

Results

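SynapTRAP (ST), the capture of tagged ribosomes from synaptoneurosomes, was set against the synaptoneurosome fraction (SNF) it was made from, in RBP4-TRAP mice at postnatal day 21. The comparison holds 10 of the 40 libraries of the series, 5 of ST and 5 of SNF, chosen by the strain label Rbp4 TRAP and by the fraction named in the labels. All genes off the mitochondrial chromosome were considered, and 17043 of these 41351 reached 0.5 cpm (the count scaled to library size) in 3 or more of the 20 RBP4 libraries and were tested. RBP4-TRAP mice carry the transgene Tg(RBP4-cre)KL100Gsat/Mmcd and a Cre-dependent reporter at the Rosa26 locus that fuses EGFP to ribosomal protein L10a, and this holds for every RBP4 library, SNF included. Cre marks layer 5 pyramidal neurons of the cortex in this line, so that tagged ribosomes come from cells with a history of Cre expression while SNF RNA comes from all cells of the tissue. The labels name the tissue as cortex, but each replicate was a pool of dissected forebrains of both sexes, and dorsal striatum may have been part of it.

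The other RBP4 libraries served as a second comparison from the same pools: TRAP, the capture of tagged ribosomes from the whole-cell homogenate, against the homogenate (WCH), with 5 libraries each. The VGAT-TRAP line, in which the same reporter is driven by Cre at the Slc32a1 locus in GABAergic neurons, gave another, ST against SNF in 5 other pools of the same age. The 4 fractions of a replicate number came from one pool of mice, so numbers pair the libraries within a line. Values below are cpm in the order of pools 1 to 5, and changes are log2 fold changes of ST over SNF with their standard error (SE). Calls are from edgeR's quasi-likelihood test, with a Benjamini-Hochberg adjusted p of 0.05 or less over all genes tested.

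Synaptoneurosomes are pinched-off and resealed pieces of pre- and postsynaptic membrane that form when tissue is gently homogenized, and they hold ribosomes, mitochondria and fragments of neurites and glial processes. Some mRNAs are carried into dendrites on kinesin motors with RNA-binding proteins and translated there, among them those of scaffold proteins of the postsynaptic density. Membrane and secreted proteins are mostly translated on ribosomes bound to the endoplasmic reticulum, and cytosolic proteins on free ribosomes. TRAP is meant to enrich RNA on ribosomes of the tagged cells. By design, ST against SNF would then compare ribosome-bound RNA of one cell population with all RNA of the fraction. The ST libraries also held RNA of marker genes of untagged cells, as given below, and its share was not tested.

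Depth was 14433907 to 19485322 counts in SNF and 17179821 to 22007698 in ST, of which 11.2% to 40.2% and 2.71% to 15.8% were mitochondrial and left out. A few libraries stood apart. SNF replicate 3 had the highest mitochondrial share (40.2%) and the highest summed level of 19 astrocyte markers, at 47605 cpm. ST replicate 2 had 1469 cpm of 19 endothelial and mural markers, against 139 to 286 cpm in the other ST libraries. ST replicate 4 had 49.9 cpm of the GABAergic marker Slc32a1, against 10.9 to 19.7 cpm in the others. Spearman correlations between replicate libraries across genes were 0.940 to 0.978 in ST and 0.958 to 0.985 in SNF, and the median coefficient of variation of genes with a mean of 5 cpm or more was 30.2% in ST and 21.9% in SNF. Of the 148 genes chosen for naming, 30 overlap another tested gene on the chromosome, Shank3 among them, and reads in the shared stretch cannot be assigned.

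Between ST and SNF, 961 genes (5.64%) were higher in ST and 931 (5.46%) were lower, out of 17043. The median change over all genes was -0.05. Genes that were higher rose by a median of 1.01 on the log2 scale (0.44 to 4.61), with 490 of them changed at least 2-fold. Genes that were lower had a median of -0.96 (-5.35 to -0.48), with 427 of them changed at least 2-fold. All 5 ST libraries lay above all 5 SNF libraries for 605 genes (3.55%) and below them for 527 (3.09%). In all 5 pools the ST library was above its own SNF library for 1987 genes (11.7%) and below it for 2816 (16.5%). With the replicate number as a block the counts were 1272 higher (7.46%) and 1452 lower (8.52%), and 947 and 930 of the original genes were kept.

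The size of both lists depended on single pools. Without pool 1 there were 580 higher and 353 lower genes, and without pool 4 there were 551 and 455, while leaving out each other pool gave 718 to 944 higher and 752 to 983 lower genes. Without the ST library of replicate 4 alone there were 682 and 672, and without that of replicate 2 alone there were 1190 and 1513. Where mitochondrial, rRNA and tRNA genes were kept in the library sizes, the median of all genes moved to 0.17 and the counts to 1752 higher and 316 lower, so that the sign of small changes depends on this scaling. With TMM factors the counts were 1178 and 890. The 24 genes with the smallest p named below kept their call in every one of the fits without a pool.

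Several genes of the SHANK, SAPAP and PSD-95 scaffold of the postsynaptic density were higher in ST than in SNF, while Shank1 did not pass. Shank3, a master scaffold that links glutamate receptor complexes to actin (chr15:89499623-89560261, GRCm38), had 22.8, 20.5, 22.2, 23.9 and 17.3 cpm in SNF and 85.8, 64.3, 131, 162 and 91.3 cpm in ST. The lowest ST library was above the highest SNF library, and the change was 2.32 (SE 0.28, edgeR adjusted p = 2.07e-05), or 5.01-fold. Dlg4, which encodes PSD-95 (chr11:70017085-70045532), had 56.5, 41, 54.2, 50.7 and 50.6 cpm in SNF and 113, 71, 98.7, 141 and 73.5 cpm in ST. Again no library of one group reached the other, and the change was 0.97 (SE 0.19, edgeR adjusted p = 0.00136).

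Of 27 postsynaptic scaffold and regulator genes tested, 13 were higher in ST and 2 lower, with a list median of 0.63 against -0.05 over all genes. Dlgap3, a SAPAP protein that binds PSD-95 and SHANK, had 20, 15.7, 26.2, 14.6 and 17.9 cpm in SNF and 69.7, 37.1, 71.7, 123 and 62.4 cpm in ST (1.95, SE 0.26, edgeR adjusted p = 5.24e-05). Iqsec3, an exchange factor of inhibitory synapses, had 140.2, 116, 157, 114 and 126 cpm in SNF and 405, 276, 566, 450.0 and 345 cpm in ST (1.65, SE 0.21, edgeR adjusted p = 3.61e-05). For both genes the groups did not overlap, and pool 2 had the lowest ST library. Dlgap4 (1.29), Iqsec2 (1.68) and Shank2 (1.37) were higher as well, while Shank1 had a change of 0.63 (SE 0.30) that did not pass (edgeR adjusted p = 0.183). The 2 genes that were lower were the transmembrane adhesion proteins neuroligin 1 and neuroligin 3, Nlgn1 (-0.86, SE 0.20) and Nlgn3 (-0.96, SE 0.22), with edgeR adjusted p of 0.00777 and 0.00596. Without pool 1 or without pool 4 the list had 10 higher genes and 1 lower.

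Camk2a encodes the alpha subunit of the calcium and calmodulin dependent kinase of excitatory synapses and is among the most abundant dendritic mRNAs. Its SNF libraries had 1686, 1463, 1665, 1834 and 1931 cpm, and its ST libraries 4963, 2490.2, 3305, 5981 and 2972 cpm. All ST libraries were above all SNF libraries, with a wide spread among them and the highest in pools 1 and 4. The change was 1.20 (SE 0.29, edgeR adjusted p = 0.00951), and the call was lost without pool 1 (1.10, edgeR adjusted p = 0.0613) or pool 4 (1.03, edgeR adjusted p = 0.0631).

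Among 16 classic dendritic mRNAs, 8 were higher in ST and 0 lower, with a median of 0.71. Of the list, 5 genes are also in the postsynaptic list (Camk2a, Dlg4, Dlgap3, Shank1 and Shank3). Ddn, dendrin of the dendritic cytoskeleton, had 126, 110.1, 163, 126 and 121 cpm in SNF and 337, 352, 543, 599.6 and 287 cpm in ST (1.72, SE 0.20, edgeR adjusted p = 1.83e-05). Psd, an exchange factor for ARF6, changed by 1.62 (SE 0.22, edgeR adjusted p = 5.74e-05). Map2, the microtubule protein of dendrites, had 550.0 to 737 cpm in SNF and 953 to 1225 cpm in ST (0.80, SE 0.19, edgeR adjusted p = 0.0069). Ddn, Psd and Map2 did not overlap between the groups. The activity-induced gene Arc had 48.6, 65.2, 11, 75.2 and 39.6 cpm in SNF and 152, 177, 42.1, 214 and 97.3 cpm in ST. Arc was lowest in pool 3 in both fractions and higher in ST in each of 5 pools, but the groups overlapped, and its call (1.51, SE 0.47, edgeR adjusted p = 0.0414) was lost in 4 of the 5 fits without a pool, all but that without pool 3. Over the 5 fits without a pool the dendritic list had 6 to 8 higher genes. Of 14 immediate early genes tested, Arc and Egr4 were called higher, and 0 were called without pool 1, 2, 4 or 5.

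**Figure D1:**
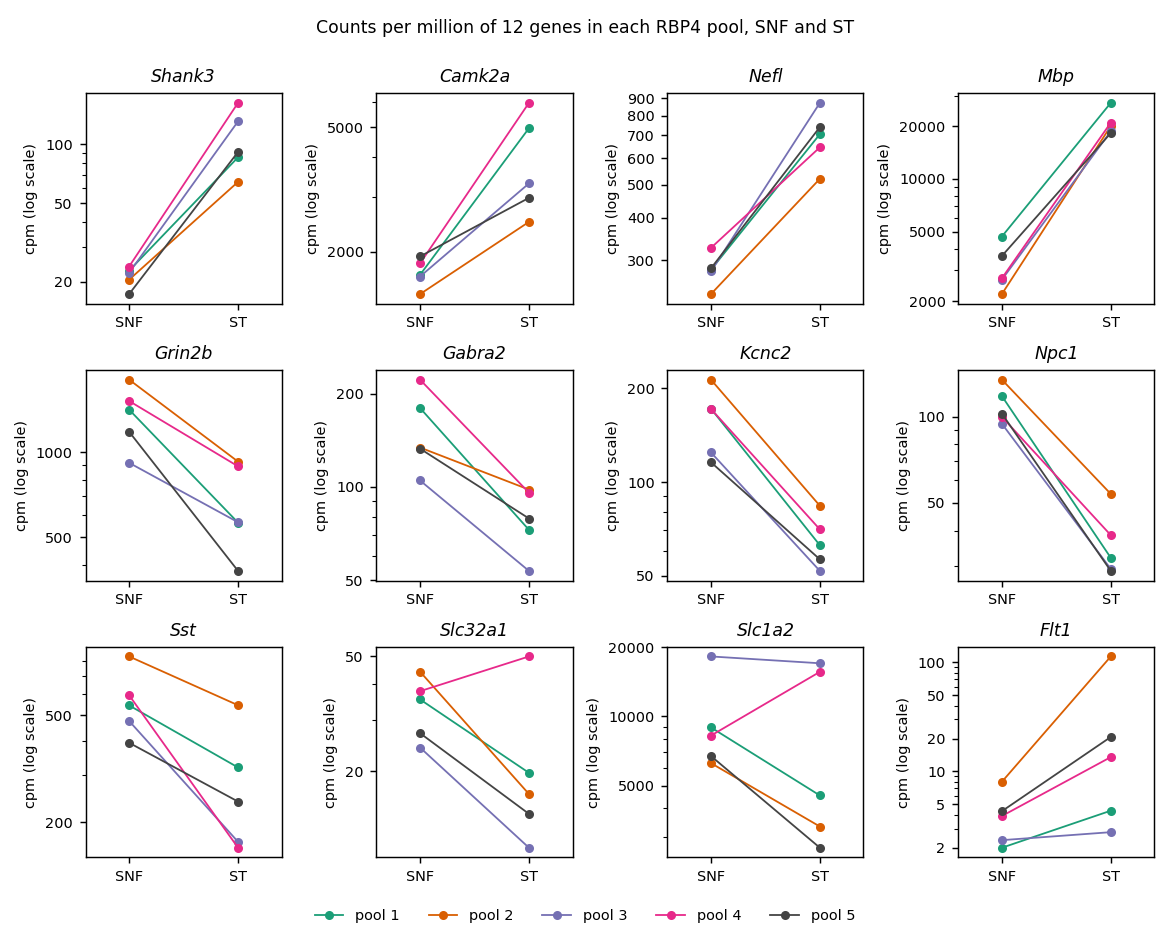
Level in cpm (log axis) of 12 genes in the SNF and ST library of each of the 5 RBP4 pools, joined by a line per pool. Shank3, Camk2a, Nefl and Mbp are higher in ST in 5 of 5 pools and Grin2b, Gabra2, Kcnc2 and Npc1 are lower in 5 of 5, while Slc32a1 is raised in pool 4 alone and Flt1 is highest in pool 2.

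The skeleton below the membrane formed the next group. Of 34 cytoskeletal linkers and microtubule-associated proteins, 14 were higher in ST and 0 lower (median 0.48), with 11 whose groups did not overlap. Sptbn4, the beta-IV spectrin of the axon initial segment and nodes, had 3.59 to 6.77 cpm in SNF and 11.9 to 33.5 cpm in ST (2.17, SE 0.36, edgeR adjusted p = 0.000354). Nefl, the light neurofilament subunit, had 281, 238, 278, 326 and 284 cpm in SNF and 706, 521, 873, 646 and 741 cpm in ST (1.31, SE 0.17, edgeR adjusted p = 4.75e-05). In both genes all ST libraries were above all SNF libraries, with pool 2 lowest. The other neurofilament subunits Nefm (0.76, SE 0.22) and Nefh (0.81, SE 0.18) were also called higher, and so was Map4 (0.88, SE 0.18).

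The calls of the ankyrins, which anchor channels to spectrin, depended on single pools. Ank2 had 1261, 783, 926, 899 and 938 cpm in SNF and 6554, 1798, 3215, 1925 and 2773 cpm in ST, and Ank3 had 463 to 741 cpm in SNF and 3708, 1233, 1801, 893 and 1843 cpm in ST. In both, the ST library of pool 1 was the highest, and the groups did not overlap. The change of Ank2 was 1.76 (SE 0.52, edgeR adjusted p = 0.0311), and without pool 1 it was 1.45 (edgeR adjusted p = 0.138), with the call lost without each of the other pools too (edgeR adjusted p = 0.0508 to 0.077). That of Ank3 was 1.75 (SE 0.47, edgeR adjusted p = 0.0169), and it was lost without pool 1 (1.47, edgeR adjusted p = 0.0878) and pool 3 (1.70, edgeR adjusted p = 0.0524). The number of higher cytoskeletal genes was 7 without pool 1, and 10 to 13 without each other pool. Map1a (0.79, SE 0.22) passed with all pools, and Map1b (0.39, SE 0.21) did not.

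Of 58 kinesin and dynein genes tested, 6 were higher and 0 lower (median 0.21). Dync1li2, a light intermediate chain of cytoplasmic dynein, had 91.7 to 141 cpm in SNF and 166 to 319.9 cpm in ST (1.17, SE 0.17, edgeR adjusted p = 9.92e-05). Kif5b, a conventional kinesin heavy chain that carries mRNA granules, had 314, 276, 563, 291 and 296 cpm in SNF and 696, 446, 1067, 886 and 436 cpm in ST. The SNF library of pool 3 was above the ST libraries of pools 2 and 5, so the groups overlapped (1.02, SE 0.24, edgeR adjusted p = 0.00647), and the call was lost without pool 4 (0.87, edgeR adjusted p = 0.057). Without pool 2, 3 or 4 the list had 3 higher genes. Kif26a (1.86, SE 0.40) and Klc4 (1.08, SE 0.29) were the other motor genes with the smallest p.

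The 12 genes with the smallest p among those higher in ST had changes of 1.45 to 2.60 and edgeR adjusted p of 9.75e-06 to 1.55e-05, and by the rule that chose them their groups did not overlap. Several act in signalling at synapses and spines. Nsmf, the messenger Jacob that moves from NMDA receptors to the nucleus, had 204, 136, 174, 188 and 161 cpm in SNF and 562, 426, 608, 861 and 513 cpm in ST (1.78, SE 0.19). Neurl1a, a ubiquitin ligase linked to dendritic translation, had 140.1, 112, 189, 143 and 134 cpm in SNF and 468, 315, 749.9, 763 and 556 cpm in ST (1.99, SE 0.23). In these 2 genes, pool 2 was again lowest in ST and pool 4 highest. Git1, an ARF GTPase-activating scaffold of spines, changed by 1.52, the kinase Pak6 by 1.55 and the GTPase-activating protein gene Arhgap33 by 1.45. Rims4, a small relative of the active zone RIM proteins, changed by 1.69, and the centrosomal protein gene Cep170b by 1.69. Tmcc2 (2.13), Mllt1 (1.63), Dennd4b (1.51) and C77080 (2.0) completed the set with Prr18 (2.60), whose SNF libraries had 9.95 to 14.6 cpm and whose ST libraries had 53.5 to 98.8 cpm. All 12 were also called higher in VGAT ST, where 16.3% of all genes were, with changes of 1.52 to 2.89. Among 55 genes of GTPase regulators named Arhgap or Arhgef, a list made after the values were seen, 11 were higher and 0 lower, with a median of 0.39. Without pool 1 the number higher was 5, and without pool 3 or 4 it was 7.

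The glutamate and GABA-A receptor genes and the sodium and calcium channel genes that passed the test were lower in ST, while potassium channel genes passed in both directions. Of 17 ionotropic glutamate receptor genes, 0 were higher and 9 lower (median -0.76). Grin2b, the NMDA receptor subunit GluN2B, had 1419, 1812, 919, 1522 and 1185 cpm in SNF and 563, 927, 565, 893 and 379.7 cpm in ST. ST was below SNF in 5 of 5 pools, while the ST library of pool 2 just exceeded the SNF library of pool 3 (-1.04, SE 0.24, edgeR adjusted p = 0.00678). Gria3, an AMPA receptor subunit, had 790.4, 945, 523, 722 and 642 cpm in SNF and 244, 582, 171, 332 and 355 cpm in ST (-1.10, SE 0.24, edgeR adjusted p = 0.00454). It overlapped for the same 2 libraries. The AMPA subunits Gria1, Gria2 and Gria4 were lower too, at -0.75, -1.04 and -0.91, as were the kainate receptor genes Grik1 (-1.30) and Grik2 (-1.06). Without pool 1 the number of lower genes in the list was 3, and it was 6 to 9 without each other pool. In some fits 1 of the 17 was higher, namely without pool 2, without the ST library of replicate 2, with the replicate block, with TMM factors and in DESeq2. Of 7 metabotropic glutamate receptor genes, 2 were lower, among them Grm5 (-1.08, SE 0.24), and 0 were called without pool 1, where Grm5 was at -0.84 (edgeR adjusted p = 0.0509). With the replicate block, which takes account of the pools, 5 of the 7 were lower, as they were without the ST library of replicate 2.

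Of 16 GABA-A receptor subunit genes, 8 were lower in ST and 0 higher, and all 16 had a negative change (median -0.93), which held for 15 of 16 with mitochondrial genes kept in the library sizes. Gabra2 had 179.6, 134, 105, 222 and 133 cpm in SNF and 72.6, 97.9, 53.5, 95.7 and 79 cpm in ST. No ST library reached the lowest SNF library, and the change was -0.95 (SE 0.22, edgeR adjusted p = 0.00641). Gabrg3 (-1.06) and Gabrg1 (-1.05) were also called lower. The number of lower subunits was 3 without pool 1 and 4 without pool 4, and 11 without the ST library of replicate 2, so that these counts depended on few libraries.

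Of 18 sodium and calcium channel pore subunits, 5 were lower and 0 higher (median -0.57), with 2 lower without pool 1. Scn2a, a sodium channel of pyramidal cell axons, had 1363, 1583, 857, 1447 and 1041 cpm in SNF and 478, 907, 314, 722 and 644 cpm in ST (-1.04, SE 0.23, edgeR adjusted p = 0.0044). ST was lower in 5 of 5 pools, and again only the ST library of pool 2 and the SNF library of pool 3 crossed. Scn3a changed by -1.30 (SE 0.24), Scn8a by -0.95 (SE 0.23) and Scn1a by -0.91 (SE 0.23), of which the calls of Scn8a and Scn1a were lost without pool 1 (-0.87 and -0.80, edgeR adjusted p = 0.0558 and 0.0845).

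Of 78 potassium channel genes, 15 were lower and 4 higher (median -0.51). Kcnc2, a fast-activating Kv3 channel, had 172, 213, 124, 172 and 116 cpm in SNF and 62.7, 83.9, 51.9, 70.5 and 56.5 cpm in ST (-1.29, SE 0.19, edgeR adjusted p = 0.000115). Kcna1, a Kv1 channel of axons, had 695, 820.5, 583, 721 and 748 cpm in SNF and 299, 368, 387, 369 and 396 cpm in ST (-0.97, SE 0.16, edgeR adjusted p = 0.000257). Neither gene overlapped between the groups. The inward rectifiers Kcnj3 (-1.26) and Kcnj2 (-1.13) were also lower. Of the 4 that were higher, Kcnab2 (1.51, SE 0.20) encodes a cytosolic beta subunit, Kcnmb4 a membrane-spanning accessory subunit and Kcnh3 a pore subunit. The list had 2 higher genes without pool 4. It had 11 lower genes without pool 1, 24 with the replicate block and 22 without the ST library of replicate 2.

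The calls of these lists also depended on the scaling. With mitochondrial genes kept in the library sizes, 2 of 17 ionotropic glutamate receptor genes, 1 of 7 metabotropic, 4 of 16 GABA-A subunits, 2 of 17 sodium and calcium channels and 10 of 76 potassium channels were lower, with list medians of -0.71 to -0.28. In the same fit 14 of 27 postsynaptic, 8 of 16 dendritic and 18 of 34 cytoskeletal genes were higher. With TMM factors the lower counts were 9, 2, 8, 5 and 16, and the higher counts 13, 8 and 15.

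The 12 genes with the smallest p among those lower in ST encode mostly membrane or secreted proteins, and by the rule that chose them their groups did not overlap. Their changes were -1.66 to -1.01 and their edgeR adjusted p 5.22e-05 to 0.00013. Npc1, the cholesterol transporter of late endosomes and lysosomes, had 118, 135, 94.5, 99.9 and 103 cpm in SNF and 32.2, 53.7, 29.4, 38.6 and 28.9 cpm in ST (-1.59, SE 0.21). The transmembrane semaphorin Sema6a had 73.9 to 114 cpm in SNF and 32.8 to 47.7 cpm in ST (-1.36, SE 0.19). The netrin and neogenin receptor genes Unc5d (-1.35) and Neo1 (-1.07), the protocadherin gene Pcdh11x (-1.2) and the channel gene Kcnc2 (-1.29) belong to the cell surface. Elovl7 (-1.41) and Hacd2 (-1.01) encode enzymes of fatty acid elongation in the endoplasmic reticulum. Slc35f1 (-1.19), Tmem106b of lysosomes (-1.09), Olfml1 (-1.66) and Endod1 (-1.02) completed the set. All 12 were also called lower in VGAT ST against SNF, where 11.2% of all genes were, and in RBP4 TRAP against WCH, where 31.5% were.

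Lists of other membrane proteins, made after these values were seen and given as a description, held few higher genes. Over all genes 5.46% were lower and 5.64% higher. Of 296 solute carriers named Slc, 59 were lower and 0 higher (19.9% and 0%, median -0.53). Of 203 genes named Tmem, 35 were lower and 3 higher (17.2% and 1.48%, median -0.39). Of 59 orphan receptors named Gpr, 15 were lower and 0 higher (25.4% and 0%, median -0.71). Of 31 cadherins and protocadherins, 13 were lower and 0 higher (41.9% and 0%, median -0.83). Of 63 guidance ligands and receptors, 20 were lower and 2 higher (31.7% and 3.17%, median -0.58). The 2 higher guidance genes, Sema3g (3.14, SE 0.88) and Robo4 (2.47, SE 0.77), are known from endothelial cells, and the list had 0 higher genes without the ST library of replicate 2. Without pool 1 the numbers of lower genes were 25, 11, 4, 7 and 8 for Slc, Tmem, Gpr, cadherin and guidance genes, and without pool 4 they were 34, 15, 4, 9 and 11. Without the ST library of replicate 2 they were 97, 63, 19, 19 and 28, and with mitochondrial genes kept in the library sizes 22, 9, 4, 5 and 6. With the replicate block 89 Slc genes were lower and 3 higher.

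**Figure D2:**
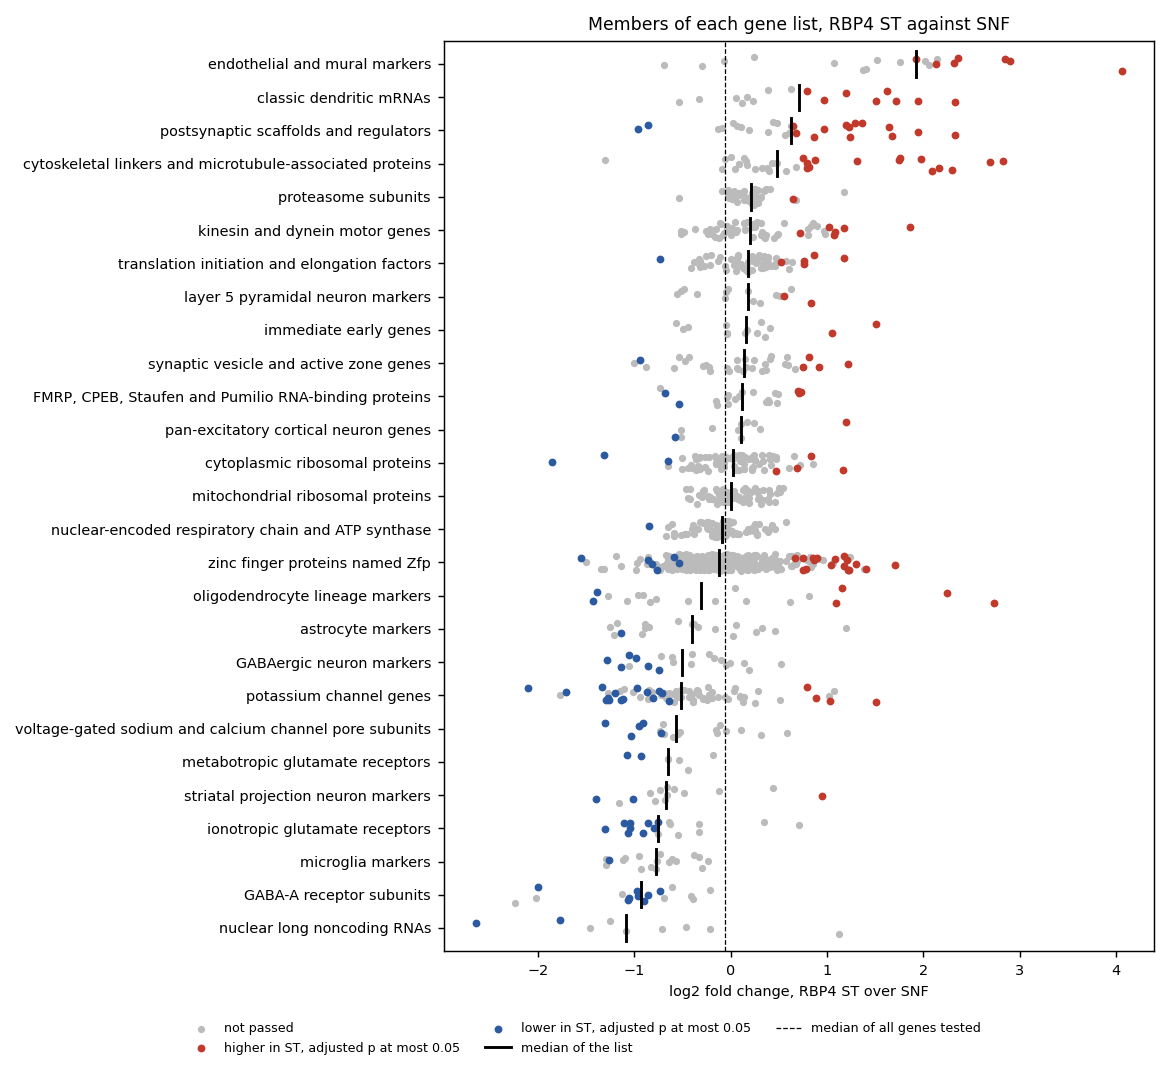
Log2 fold change of ST over SNF in the RBP4 line for each tested member of the 27 lists (points, spread vertically for visibility), with the median of each list as a bar and that of all genes (-0.05) as a dashed line. The receptor and channel lists have medians of -0.93 to -0.51 and the postsynaptic, dendritic and cytoskeletal lists 0.48 to 0.71, while the endothelial and mural list has 1.93, which becomes 0.40 without the ST library of replicate 2.

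Most presynaptic genes did not pass the test. Of 34 synaptic vesicle and active zone genes, 4 were higher and 1 lower (11.8% and 2.94%, against 5.64% and 5.46% of all genes, median 0.14), and with the replicate block 8 were higher and 1 lower. The calcium sensor of vesicle release, Syt1, a transmembrane protein of the vesicle, had 4961, 6943, 3199.6, 5888 and 4077 cpm in SNF and 2275, 4033, 1450.3, 2334 and 2980.2 cpm in ST (-0.94, SE 0.23, edgeR adjusted p = 0.0103). ST was lower in 5 of 5 pools, but the ST library of pool 2 lay above the SNF library of pool 3. Snap25, which is anchored to the plasma membrane by lipid, was at 2167 to 4752 cpm in SNF and 1242 to 3954 cpm in ST (-0.43, SE 0.26, edgeR adjusted p = 0.318). Vamp2, the vesicle SNARE, had 563, 411, 618, 640.4 and 604 cpm in SNF and 884, 638, 1100.2, 1024 and 1125 cpm in ST (0.75, SE 0.21, edgeR adjusted p = 0.0208). The active zone genes Rims1 (0.92, SE 0.24), Unc13a (0.81, SE 0.23) and Ppfia3 (1.22, SE 0.25) were higher, while Bsn (0.41, SE 0.24) and Syn1 (0.42, SE 0.24) did not pass. Without pool 1 the list had 1 higher gene and 0 lower, and without pool 4 it had 1 and 1, and of the 4 higher genes Ppfia3 was called in all 5 fits without a pool.

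Most markers of the tagged cells did not pass the test between SNF and ST. Among layer 5 markers, 13.3% were higher and 0% lower, against 5.64% and 5.46% of all genes. Of 15 layer 5 pyramidal markers, 2 were higher, Bcl6 (0.55, SE 0.15) and Pou3f1 (0.83, SE 0.25), and 0 lower, with a median of 0.18 and 0 called without pool 2 and 1 without each other pool, while leaving out the ST library of replicate 2 alone gave 4 higher and 2 lower and the replicate block 3 and 1. Fezf2, the transcription factor that specifies layer 5 projection neurons, had 15.7, 15.8, 12.2, 26.9 and 23.8 cpm in SNF and 17.1, 17.6, 10.9, 19.5 and 46.4 cpm in ST. Its groups overlapped, and the change was 0.24 (SE 0.32, edgeR adjusted p = 0.693). The gene behind the Cre line, Rbp4, had 16.6 to 41.2 cpm in SNF and 9.89 to 37 cpm in ST (-0.35, SE 0.29, edgeR adjusted p = 0.497). The vesicular glutamate transporter gene Slc17a7 had 611 to 978 cpm in SNF and 550.4 to 1084 cpm in ST (0.10, SE 0.20, edgeR adjusted p = 0.8). In RBP4 TRAP against WCH, 7 of the 15 layer 5 markers were higher and 0 lower (8.37% and 31.5% of all genes), and the difference between the captures itself was called for 3 of the 15, 1 above in ST against SNF and 2 below. In TRAP, Fezf2 was at 1.52 (SE 0.32) and Slc17a7 at 0.61 (SE 0.21). In bulk RNA, fewer cells or processes of a type and less RNA in each cannot be told apart.

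Markers of GABAergic neurons, which the line does not target, were lower in ST in 6 of 20 genes and higher in 0 (median -0.50). Their summed level was 1670 to 2965 cpm in SNF and 854 to 1693 cpm in ST. Sst, the neuropeptide somatostatin, had 545, 829, 477, 595 and 396 cpm in SNF and 320.2, 546, 169, 161 and 239 cpm in ST (-0.99, SE 0.27, edgeR adjusted p = 0.0187), lower in 5 of 5 pools with groups that overlapped. Reln (-1.29, SE 0.24), Vip (-1.14, SE 0.26) and Npy (-1.05, SE 0.27) were lower as well, and the groups of Reln and Vip did not overlap. Slc32a1, the vesicular GABA transporter, had 35.4, 44.2, 24.1, 37.8 and 27.1 cpm in SNF and 19.7, 16.7, 10.9, 49.9 and 14.2 cpm in ST. The ST library of replicate 4 was the highest of all 10 (-0.60, SE 0.34, edgeR adjusted p = 0.281), and without this library the change was -1.14 (edgeR adjusted p = 0.0173). Gad2 (-0.86, SE 0.28, edgeR adjusted p = 0.0456) lost its call in each fit without pool 1, 2, 4 or 5, and the list had 3 lower genes without pool 1 or 4 and 2 with mitochondrial genes kept in the library sizes. Striatal markers gave 2 lower genes, Drd1 (-1.40, SE 0.30) and Penk (-1.01, SE 0.32), and 1 higher, Gng7 (0.95, SE 0.25), out of 14, and 6 were lower with the replicate block. Penk lost its call without pool 2, 4 or 5 (edgeR adjusted p = 0.0850 to 0.136) and without the ST library of replicate 4, and the list had 0 higher genes without pool 1 or 4. Of 11 pan-excitatory genes 1 was higher (Camk2a) and 1 lower (Nptx1, -0.57, edgeR adjusted p = 0.0498), and 0 were lower in each fit without a pool.

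Glial markers did not move as one. Of 19 astrocyte markers, 1 was lower, the sodium pump subunit gene Atp1b2 (-1.14, SE 0.17, edgeR adjusted p = 0.000137), and 0 higher, or 3 and 0 with the replicate block, with summed levels of 19481 to 47605 cpm in SNF and 8940 to 32666 cpm in ST. Slc1a2, the astrocytic glutamate transporter, had 8958, 6272, 18203, 8254 and 6732 cpm in SNF and 4539, 3328, 17004, 15611 and 2692 cpm in ST (-0.17, SE 0.44, edgeR adjusted p = 0.862). Its ST level was lower than SNF in 4 of 5 pools and higher in pool 4. Gfap, an intermediate filament, was higher in ST in 5 of 5 pools, with 96.1 to 214 cpm in SNF and 102 to 712 cpm in ST, but did not pass (1.20, SE 0.48, edgeR adjusted p = 0.11). Of 18 microglia markers all had a negative change (median -0.77), or 17 of 18 with mitochondrial genes kept in the library sizes, and 1, Gpr34 (-1.26, SE 0.38), passed, which it did not do without pool 1, 3 or 4. With the replicate block 4 were lower. Their summed level was 499.7 to 1545 cpm in SNF and 200.3 to 797 cpm in ST.

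Among 18 oligodendrocyte markers, 4 were higher and 2 lower (22.2% and 11.1%, against 5.64% and 5.46% of all genes), and myelin genes differed from each other. The list median was -0.30, with 8 positive and 10 negative changes. Mbp, myelin basic protein, whose mRNA is known to be carried into oligodendrocyte processes, had 4680.3, 2193, 2652, 2700.3 and 3623 cpm in SNF and 27255, 20094, 18746, 21005 and 18307 cpm in ST. All ST libraries were above all SNF libraries, and the change was 2.73 (SE 0.60, edgeR adjusted p = 0.00418), or 6.65-fold. Mobp had 709 to 1551 cpm in SNF and 4206 to 8503 cpm in ST (2.24, SE 0.53, edgeR adjusted p = 0.00752). Mog, a membrane glycoprotein of myelin, had 571, 646, 715, 369 and 527 cpm in SNF and 353, 292, 348, 165 and 300.4 cpm in ST (-0.96, SE 0.34, edgeR adjusted p = 0.0731). With the replicate block Mog passed (-0.99, edgeR adjusted p = 0.0261) and 6 markers of the list were lower. Cnp (1.15) and Olig1 (1.09) were called higher and the membrane protein gene Cldn11 (-1.43) and the lipid enzyme gene Ugt8a (-1.39) lower. Cnp and Olig1 lost their calls without pool 1, 3 or 4. The summed level of the 18 markers was 14206 to 21204 cpm in SNF and 33087 to 46040 cpm in ST, higher in 5 of 5 pools. Mbp alone made up 2193 to 4680.3 cpm of the SNF sums and 18307 to 27255 cpm of the ST sums. The rise of the sum therefore does not describe the list as a whole. The part of RNA from untagged cells in the ST libraries was not tested.

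Endothelial and mural markers had a median of 1.93, with 7 of 19 higher and 0 lower, and both values depended on ST replicate 2, without which the median was 0.40. Flt1, a VEGF receptor, had 2, 8.04, 2.35, 3.9 and 4.32 cpm in SNF and 4.37, 113, 2.78, 13.6 and 20.7 cpm in ST (2.90, SE 0.69, edgeR adjusted p = 0.00836). Without this library the change of Flt1 was 1.32 (edgeR adjusted p = 0.0777) and 2 markers were higher. Rgs5 had 469 cpm in ST replicate 2 and 21.4 to 41.7 cpm in the other ST libraries, and its change went from 1.93 (edgeR adjusted p = 0.0425) to -0.02 (edgeR adjusted p = 0.979), and it did not pass with the replicate block either (1.15, edgeR adjusted p = 0.157). Tagln went from 2.13 (edgeR adjusted p = 0.0142) to 0.99 (edgeR adjusted p = 0.105). Acta2, smooth muscle actin, had 0.375 to 3.06 cpm in SNF and 18.7, 60.4, 0.517, 4.73 and 12.5 cpm in ST (4.06, SE 0.85, edgeR adjusted p = 0.00296), and kept its call. Leaving out whole pools gave 3 higher genes without pool 2 or 4 and 10 without pool 3.

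Of 9 long noncoding RNAs that are mostly nuclear, 2 were lower in ST, Snhg11 and Meg3, and 0 higher. Snhg11 had 1892, 1042, 324, 684 and 3109 cpm in SNF and 193, 262, 135, 191 and 349 cpm in ST (-2.64, SE 0.55, edgeR adjusted p = 0.00274). Malat1 had 5627, 3753, 1447, 3634 and 11618 cpm in SNF and 898, 2035, 1302, 1982 and 3254 cpm in ST (-1.46, SE 0.48, edgeR adjusted p = 0.0509), just outside the limit, and passed with the replicate block (-1.27, edgeR adjusted p = 0.037), with which 4 genes of the list were lower. Both were lower in 5 of 5 pools, and both SNF ranges were wide, with pool 5 highest and pool 3 lowest. Malat1 also passed without pool 3 (-1.59, edgeR adjusted p = 0.0466), with TMM factors (edgeR adjusted p = 0.0485) and in DESeq2 (adjusted p = 0.00928). Meg3 (-1.77, SE 0.54) did not pass without pool 1, 2 or 5.

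Most genes of the translation machinery and of energy supply did not pass the test. Over all genes 5.64% were higher and 5.46% lower. These shares were 4.82% and 3.61% for cytoplasmic ribosomal proteins and 7.94% and 1.59% for translation factors. They were 14.3% and 9.52% for RNA-binding proteins, and 0% and 1.23% for respiratory chain and ATP synthase genes. Of 83 cytoplasmic ribosomal protein genes, 4 were higher and 3 lower (median 0.02), of which Rpl13 (1.17, SE 0.30), Rpl15 (0.69, SE 0.21), Rpsa (0.84, SE 0.26) and Rpl14 (0.47, SE 0.15) were higher. These genes have many near-identical pseudogene copies, so their counts are uncertain, and the counts of called genes were 1 and 1 without pool 1, 2 and 2 without pool 3, 1 and 0 without pool 4, 0 and 1 without pool 5 and 8 and 3 with the replicate block. Of 63 translation initiation and elongation factors, 5 were higher and 1 lower (median 0.19). Eif3f, a subunit of the initiation complex eIF3, had 73, 76.8, 127, 127 and 108 cpm in SNF and 191, 108, 233, 328 and 295 cpm in ST (1.17, SE 0.27, edgeR adjusted p = 0.00552). The ST library of pool 2 overlapped the SNF libraries, and the list had 2 higher genes without pool 1 or 4 and 9 with the replicate block. Of 21 RNA-binding proteins of neuronal mRNA control, 3 were higher and 2 lower, and 0 were lower without pool 1, 2 or 4 or without the ST library of replicate 4, and 1 without pool 5. Pum2, a repressor of dendritic mRNAs, had 231 to 282 cpm in SNF and 377 to 479 cpm in ST, with no overlap (0.70, SE 0.14, edgeR adjusted p = 0.00157). Fmr1, the fragile X gene, did not pass (0.12, SE 0.20, edgeR adjusted p = 0.774).

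Of 75 mitochondrial ribosomal protein genes, 0 were called in either direction by edgeR's quasi-likelihood test (median 0.01), with 4 higher and 2 lower at an unadjusted p under 0.05, 0 and 0 called by the likelihood ratio test and 1 and 1 by DESeq2 and with the replicate block. Of 81 nuclear-encoded respiratory chain and ATP synthase genes, 0 were higher and 1 lower, Cox6a2 (-0.84, SE 0.20), with a median of -0.09 and 2 lower with the replicate block. Of 38 proteasome genes 1 was higher, Psmd2 (0.64, SE 0.20), which did not pass in any fit without a pool, and 2 were higher with the replicate block. Of 327 zinc finger genes named Zfp, 17 were higher and 6 lower (5.20% and 1.83%, against 5.64% and 5.46% of all genes), with 8 and 1 without pool 4, 13 and 3 without pool 1 or 5 and 20 and 13 with the replicate block. With mitochondrial genes kept in the library sizes, the higher counts of the ribosomal, translation factor, mitochondrial ribosomal and respiratory chain lists were 12, 14, 6 and 7.

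ST minus SNF was set against TRAP minus WCH from the same 5 pools, as an interaction in the same fit. The starting RNA of the captures differed too, with 2286 genes higher and 6164 lower in SNF than in WCH. An effect of the capture and one of the starting fraction therefore cannot be told apart here. TRAP against WCH called 1426 genes higher (8.37%) and 5377 lower (31.5%), with a median of -0.34. Of the 961 genes higher in ST, 97 were also higher in TRAP and 245 lower. Of the 931 lower in ST, 601 were also lower in TRAP and 6 higher. The interaction called 2922 genes (17.1%) with a change from SNF to ST above that from WCH to TRAP, and 491 (2.88%) with one below it, around a median of 0.27. With TMM factors the median was 0.03 and the split was 2187 to 1433. With the replicate block there were 3794 (22.3%) and 785 (4.61%). Without pool 5 the counts were 4475 and 984, without pool 4 they were 1526 and 137, and without pool 1, 2 or 3 they were 1846 to 1899 and 174 to 307. Without the ST library of replicate 2 they were 3059 and 834.

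The scaffold genes were among those whose change differed between the captures. Shank3 changed by -0.42 (SE 0.27) in TRAP against WCH, and the difference to ST against SNF was 2.74 (SE 0.38, edgeR adjusted p = 5.5e-05). Map2 was lower in TRAP (-1.27, SE 0.19) and higher in ST (0.80), a difference of 2.07 (SE 0.26, edgeR adjusted p = 2.65e-05). Camk2a differed by 1.83 (SE 0.41, edgeR adjusted p = 0.00308) and Dlg4 by 1.27 (SE 0.26, edgeR adjusted p = 0.00155). In the postsynaptic list the interaction was above in 15 of 27 genes and below in 0. The receptor gene Grin2b changed by -1.27 in TRAP and -1.04 in ST, with a difference of 0.22 (SE 0.34, edgeR adjusted p = 0.684). Of 16 GABA-A subunits, 0 were called in the interaction in either direction by edgeR, with 1 below at an unadjusted p under 0.05 and 1 below with TMM factors. Of 17 ionotropic glutamate receptor genes, 2 were above and 0 below. TRAP against WCH had 7 of the 16 GABA-A subunits and 11 of the 17 ionotropic glutamate receptor genes called lower, against 31.5% of all genes. For comparison, 17.1% of all genes were above in the interaction and 2.88% below.

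Markers of untagged cells differed between the captures. In TRAP against WCH, 17 of 19 astrocyte, 17 of 18 oligodendrocyte, 18 of 18 microglia, 14 of 19 endothelial and mural and 16 of 20 GABAergic markers were lower and 0 higher. The interaction was above for 12, 15, 15, 14 and 14 of these and below for 0. Of all genes, 31.5% were lower and 8.37% higher in TRAP against WCH. In the interaction 17.1% of all genes were above and 2.88% below. Slc1a2 changed by -2.29 (SE 0.47) in TRAP and -0.17 in ST, a difference of 2.13 (SE 0.64, edgeR adjusted p = 0.0198). Mog changed by -2.93 (SE 0.37) in TRAP and -0.96 in ST, a difference of 1.98 (SE 0.48, edgeR adjusted p = 0.00561). Gad2 changed by -2.76 (SE 0.29) in TRAP and -0.86 in ST, a difference of 1.90 (SE 0.39, edgeR adjusted p = 0.00149). The part of these markers' cells in the other differences was not tested.

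The genes with the smallest interaction p above were Prr18 (3.86), Rab7b (4.14), Prr5l (4.02) and Tmem88b (3.43), whose changes in TRAP over WCH were -1.26, -3.64, -3.00 and -3.24. Below were Edf1 (-1.81) and the respiratory chain genes Cox14 (-1.47), Ndufa6 (-1.77) and Cox5b (-1.76). Ndufa6, a subunit of complex I, was 1.30 (SE 0.19) higher in TRAP than in WCH, while its SNF libraries had 153, 155, 237, 186 and 223 cpm and its ST libraries 156, 111, 114, 152 and 156 cpm. Of 81 respiratory chain and ATP synthase genes, 56 were higher in TRAP, 0 in ST, and 34 were below in the interaction. For 75 mitochondrial ribosomal protein genes these numbers were 52, 0 and 22. Of all genes, 8.37% were higher in TRAP, 5.64% were higher in ST and 2.88% were below in the interaction.

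**Figure D3:**
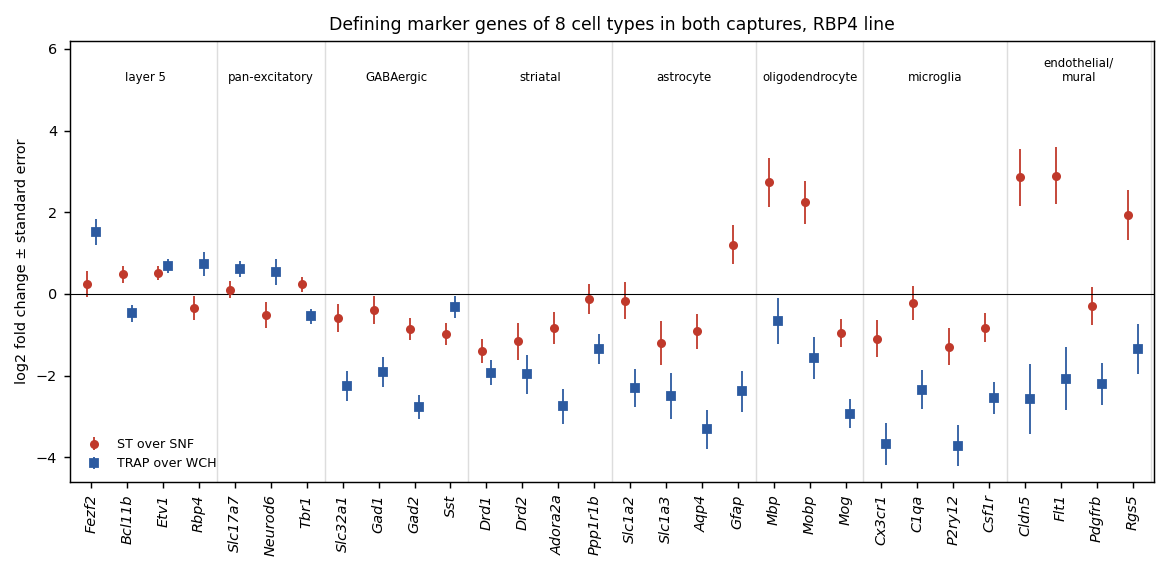
Log2 fold change ± standard error of 30 defining marker genes of 8 cell types in the RBP4 line, for ST over SNF (circles) and TRAP over WCH (squares). Astrocyte, oligodendrocyte and microglia markers lie at -3.71 to -2.29 in TRAP over WCH except Mbp (-0.66) and Mobp (-1.57), and at -1.29 to 2.73 in ST over SNF.

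The same comparison in VGAT-TRAP mice asked which changes the captures of pyramidal and GABAergic neurons shared. VGAT ST against SNF called 2773 genes higher (16.3%) and 1903 lower (11.2%) of 16990, and with TMM factors 1986 and 2480. Of the RBP4 genes higher in ST, 958 were tested in VGAT and 905 were higher there too, which is 94.5% of the RBP4 list and 32.6% of the VGAT list. Of the lower genes, 924 were tested and 706 were lower, which is 76.4% of the RBP4 list and 37.1% of the VGAT list, and 1 was higher. Shank3 changed by 2.46 (SE 0.21) in VGAT and 2.32 in RBP4 and Mbp by 3.06 (SE 0.42) and 2.73. Gabra2 changed by -1.33 (SE 0.17) in VGAT and -0.95 in RBP4, and Grin2b by -1.03 (SE 0.20) and -1.04. Mbp is a marker of oligodendrocytes, which neither line targets. In VGAT ST, 5 of the 18 oligodendrocyte markers were higher and 3 lower, against 4 and 2 in RBP4 ST. How far the shared changes came from untagged cells was not tested.

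The difference between the lines itself was tested as an interaction over all genes. At an adjusted p of 0.05, edgeR's quasi-likelihood test called 0 of 17728 genes, with 502 at an unadjusted p under 0.05 (2.83%), of which 109 were above in RBP4 and 393 below. The smallest edgeR adjusted p was 0.210. With the replicate block 729 genes were under 0.05, and the smallest edgeR adjusted p was 0.0947. Without the RBP4 ST library of replicate 4 these values were 1120 and 0.062, and with the 20 ST and SNF libraries only they were 254 and 0.999. Each of these edgeR fits called 0 genes, but how near genes came to the threshold depended on the fit. DESeq2 called 0, with 578 at an unadjusted p under 0.05, and edgeR's likelihood ratio test called 4 genes, all lower in RBP4. With TMM factors 374 of the genes under 0.05 were above and 209 below, so the direction of this tally depends on the scaling.

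The 4 genes, named after their values were seen, were Gm27008, Cort, Tac2 and Crhbp, and the last 3 encode cortistatin, neurokinin B and a CRH-binding protein of interneurons. Tac2 had 37.4, 47.3, 25.4, 44 and 31.6 cpm in RBP4 SNF and 18.8, 17.5, 7.82, 12.9 and 15.7 cpm in ST. It was lower there without overlap (-1.35, SE 0.29, edgeR adjusted p = 0.00392), while VGAT had 0.65 (SE 0.29), a difference of -2.01 (SE 0.42, edgeR adjusted p = 0.21). For Cort the difference was -1.67 (SE 0.36) and for Crhbp -1.44 (SE 0.31), with the same edgeR adjusted p of 0.21. Sst followed at -1.71 (SE 0.43) and Vip at -1.51 (SE 0.40), both with an edgeR adjusted p of 0.767. Of 20 GABAergic markers, 9 were below at an unadjusted p under 0.05 and 0 above, against 393 and 109 of 17728 genes. Of 15 layer 5 markers 1 was above and 1 below. Among genes with positive differences, Adcyap1 had 1.5 (SE 0.47), Postn 1.19 (SE 0.45), Pter 1.07 (SE 0.39) and Klhl9 0.99 (SE 0.36), all with an edgeR adjusted p of 0.998. The postsynaptic, dendritic, cytoskeletal and GABA-A lists had 0 genes at an unadjusted p under 0.05 in either direction, with median differences of -0.13, -0.17, 0.05 and 0.21.

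**Figure D4:**
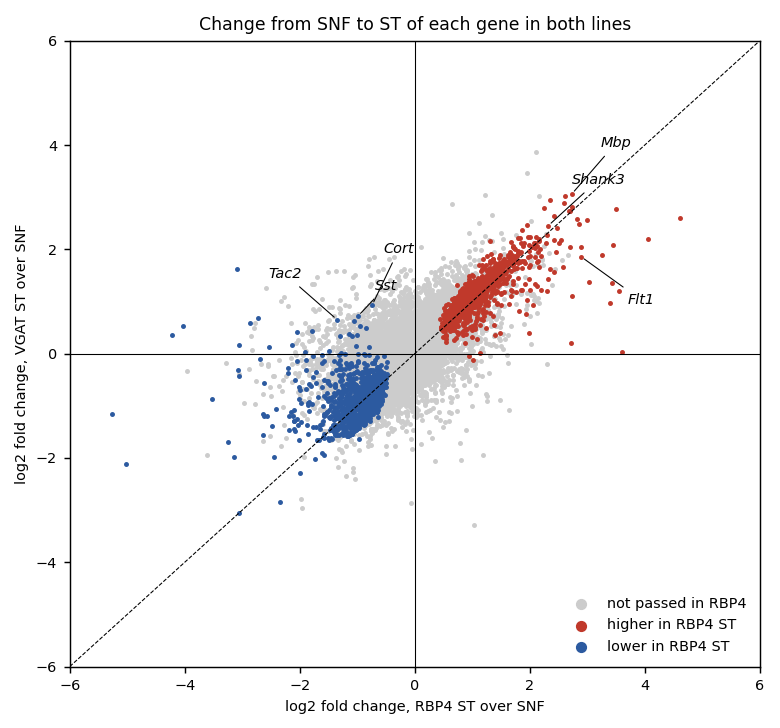
Log2 fold change of ST over SNF in VGAT (vertical) against RBP4 (horizontal) for 16575 genes tested in both, coloured by their RBP4 call, with a dashed line of equal change. Shank3 and Mbp lie near the line, and Sst, Tac2 and Cort lie above it, at positive changes in VGAT and negative ones in RBP4.

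Base composition went with the direction of change. Median GC content of the longest transcript was 54.8% for genes higher in ST, 46.9% for those lower and 49.5% for all genes tested, over the 99.4% of genes with a value. With genes ordered by GC content in 10 equal bins, 0.826% were higher and 8.21% lower in the lowest bin, and 16.4% were higher and 0.767% lower in the highest. Across 16937 genes Spearman's rho of GC content and change was 0.22, as a description, since these genes share the same libraries. By pool, over the 13826 genes that averaged 1 cpm or more, rho was 0.28, 0.11, 0.02, 0.32 and 0.13, so it was near 0 in pool 3. The same rho was 0.32 in VGAT ST against SNF and 0.20 in RBP4 TRAP against WCH, so it was not particular to ST against SNF in this line.

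**Figure D5:**
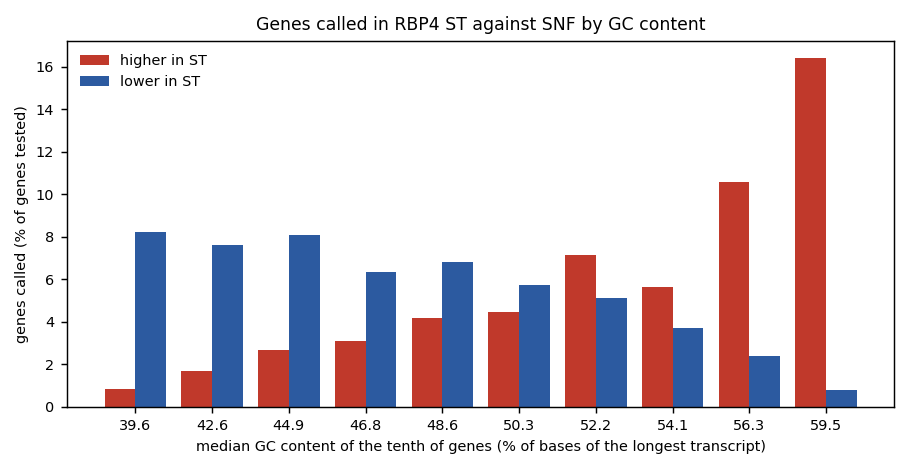
Share of genes called higher (red) and lower (blue) in RBP4 ST against SNF, in 10 equal bins of the genes tested ordered by GC content, each marked by its median GC content. The share higher is 0.826% in the lowest bin and 16.4% in the highest, and the share lower is 8.21% and 0.767%.

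Median exonic length was 4995 bases for genes higher, 4896 for genes lower and 3477 for all, and median coding length was 1953, 1575 and 1410 bases over the 86.6% of genes with a value. In RBP4 TRAP against WCH, in contrast, the median exonic length was 2033.5 bases for genes higher and 4740 for genes lower, with rho of -0.25 across 17043 genes against 0.08 in ST against SNF. Of protein-coding genes, 943 were higher and 866 lower of 14747. Of 482 lincRNAs, 4 were higher and 16 lower, and of 600 antisense genes, 4 and 18, where reads cannot be told from those of the opposite gene because the library kit does not mark strand.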

How the data were processed

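RNA of each fraction was amplified with the SMARTer Ultra Low kit, which does not mark strand, and sequenced as single 50-base reads. The authors used STAR 2.0.4b and an Ensembl assembly for alignment and featureCounts 1.4.5 for counting unique, unambiguous reads. These counts were deposited for each library without normalization. Deposited CPM values (count over library total) and RPKM values (CPM per kb of gene) were made by the authors and served only as a check, since CPM recomputed from the counts differed by at most 4.07e-10. Gene coordinates in the files overlapped those of GENCODE M21 (GRCm38) for 40281 of 40340 genes with a symbol (99.9%).

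From the counts, 390 genes were left out (37 mitochondrial, 353 rRNA or tRNA), and library sizes were the remaining totals. Genes with 0.5 cpm in 3 or more of the 20 RBP4 libraries entered glmQLFit and glmQLFTest of edgeR 4.0.16 under R 4.3.3, with group as the only term and Benjamini-Hochberg adjustment. Interactions came from the same fit, or from all 40 libraries between lines. The likelihood ratio test, DESeq2 1.42.0, TMM and DESeq2 size factors, other filters, other sets of libraries, a replicate block and fits without each pool or single libraries were alternatives. Fits without a pool did not use the same libraries for ST against SNF and for the interaction with TRAP against WCH. Without pool 1, 16965 genes were tested in the former and 16821 in the latter. Steps were tested on simulated data. Python 3.11.15, pandas 2.3.3 and matplotlib 3.10.9 were also used.

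Fractions of one number came from one pool. Deviations from the group means of ST and SNF correlated by 0.39 on average for equal numbers (0.16 to 0.63, 5 pairs) and by -0.10 for unequal ones (20 pairs), so the numbers pair the libraries. P-values of the main fits, with group as the only term, measure the spread between libraries within groups. They take no account of this pairing, which the replicate block does. One count was worth 0.0471 to 0.0978 cpm in these 10 libraries, which limits the precision of genes near 1 cpm.

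The comparison, its members and its 27 gene lists were chosen with earlier results of these data known, and 6 more lists after the values were seen. Genes named were Shank3, Dlg4, Camk2a, defining genes of the lists described, the 12 of smallest p in each direction (mean of at least 5 cpm, groups not overlapping, no Gm or Rik symbol), up to 4 members of smallest p per list in its main direction, and 4 per direction in each interaction. Other genes named are members called in a list, chosen after their values were seen. Some genes that these rules chose are not reported here. The libraries left out singly and the tests added for the interaction between lines were also chosen after seeing the data.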

Additional observations from a re-analysis of the deposited data

Results flagged for a closer look

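Among 368 sets of 5 values (148 genes and 33 list sums in each group, and library measures), 28 (7.61%) had a highest or lowest library set apart from the others by Dixon's criterion, which chance does in about 1 in 20. SNF replicate 3 was highest for mitochondrial reads (40.2%), the share of the 10 most abundant genes (10.3%), the sum of astrocyte markers (47605 cpm), Slc1a2 (18203 cpm), Olig1 (66.4 cpm) and Kif5b (563 cpm). It was lowest for Sema6a (73.9 cpm), Neurod6 (36.4 cpm), Drd2 (2.54 cpm) and Penk (316 cpm). SNF replicate 4 was highest for Tbr1 (59.8 cpm) and SNF replicate 2 for Acta2 (3.06 cpm).

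ST replicate 2 was highest for the sum of endothelial and mural markers (1469 cpm), Flt1 (113 cpm), Pdgfrb (34.7 cpm), Rgs5 (469 cpm), Tagln (36.1 cpm) and the microglial Gpr34 (24.8 cpm). ST replicate 3 was lowest for Drd1 (6.59 cpm) and highest for Tmem88b (110.2 cpm). ST replicate 4 was lowest for Olfml1 (4.04 cpm) and highest for Slc32a1 (49.9 cpm), Meg3 (4.41 cpm) and Map1a (558 cpm). ST replicate 5 was highest for Fezf2 (46.4 cpm) and the sum of mitochondrial ribosomal proteins (3516 cpm). ST replicate 1 was highest for Mobp (8503 cpm) and lowest for Kcna1 (299 cpm).

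The change from SNF to ST differed from that from WCH to TRAP in the same pools, by an interaction term, for 2922 genes above and 491 below. The genes named from it differed by 3.86 (Prr18), 4.14 (Rab7b), 4.02 (Prr5l), 3.43 (Tmem88b), -1.81 (Edf1), -1.47 (Cox14), -1.77 (Ndufa6) and -1.76 (Cox5b) on the log2 scale.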

How the results depend on the processing

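The counts of 961 higher and 931 lower genes became 1752 and 316 with no genes left out of the library sizes, 598 and 485 with the 10 ST and SNF libraries only, and 1505 and 1495 with all 40 libraries. Lower genes were 1452 with the replicate block and 1945 with the replicate block in the 10 libraries only. Of the genes named by rule, the block brought Bcl11b, Drd2, Adora2a, Mog, P2ry12, Malat1, Miat, Cpeb1 and Cox14 past the threshold and took the calls of Rgs5 and Klhl9, and it changed no other call among them. Without ST replicate 2 there were 1190 and 1513, an alternative chosen after seeing the data. Fits without one pool gave 551 to 944 higher and 353 to 983 lower genes. Other alternatives stayed within 1.5 times: the likelihood ratio test gave 1155 and 1242, DESeq2 1334 and 1315, TMM 1178 and 890, DESeq2 size factors 1062 and 971, no filter 826 and 833, and a stricter filter 986 and 950. The interaction with TRAP against WCH gave 1526 to 4475 above and 137 to 984 below without one pool, 1433 below with TMM, 785 below with the replicate block and 834 below without ST replicate 2. The interaction between lines gave 4 genes below with the likelihood ratio test in place of 0. Fewer samples were fitted where pools or fractions were left out, and the cause of the other differences was not tested.

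Changes near 0 turned sign in single settings. With no genes left out, Ppp1r1b was 0.0763, Slc1a2 0.12, C1qa 0.0911, Stau1 0.20, Edf1 0.0454 and Postn 0.23. With TMM, Stau1 was 0.0299 and Postn 0.0254. Over the fits without a pool or a single ST library, the change ran from -0.119 to 0.443 for Fezf2, -0.0481 to 0.198 for Slc17a7, -0.168 to 0.0294 for Ppp1r1b, -0.543 to 0.0407 for Slc1a2, -0.724 to 0.136 for C1qa, -0.0168 to 2.45 for Rgs5, -0.0092 to 0.255 for Fmr1, -0.0938 to 0.106 for Stau1, -0.184 to 0.323 for Tmem88b and -0.644 to 0.224 for Postn.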
